A study of Drosophila melanogaster with 2 samples.

Results

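The 8 mature products of the hairpins mir-927, mir-929, mir-932 and mir-980 were read in small RNA libraries from heads of adult Drosophila melanogaster females. They were taken by name, as both arms (5p and 3p) of each of the 4 hairpins, and all 8 were listed in each library, where the control held 233 known mature sequences in all and the ethanol library 228. The flies were Canton-S, a laboratory wild-type strain, 3 to 5 days old and kept on a 12 h light and 12 h dark cycle. The control flies sat in ethanol-free air for 45 minutes. The ethanol flies were exposed to ethanol vapour for 15 minutes, by which time every fly was sedated, and then sat in ethanol-free air for 30 minutes. About 180 flies were pooled per sample, and each group is 1 library, so no difference between the groups has a replicate check, and treatment and library cannot be told apart.

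MicroRNAs are cut from the stem of a hairpin, first by Drosha in the nucleus and then by Dicer, which leaves a short duplex of the 5p and the 3p arm. One arm is usually loaded into an Argonaute protein and guides it to messenger RNAs that pair with the seed, bases 2 to 8 of the arm, while the other arm is mostly lost. In the fly, mir-980 is known as a suppressor of memory formation that acts on the splicing regulator A2bp1. For mir-932 a role in memory is known from the honeybee, where its knockdown impaired long-term memory and actin 5C is a target. mir-927 has been linked in the fly to Kr-h1, a transcription factor of the juvenile hormone response.

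The deposited mature sequences are given first because each arm is a product of its own, with its own seed and its own level. They are written 5′ to 3′ with T for U, as the deposited files have them, and the capitals mark the seed. The prefix dme stands for the species and is left out below.
dme-miR-927-5p: tTTAGAATtcctacgctttacc
dme-miR-927-3p: cAAAGCGTttggattctgaaac
dme-miR-929-5p: aAATTGACtctagtagggagtc
dme-miR-929-3p: cTCCCTAAcggagtcagattg
dme-miR-932-5p: tCAATTCCgtagtgcattgcag
dme-miR-932-3p: tGCAAGCGctgcggatttggca
dme-miR-980-5p: aGTTTTTCatttggcctggctagc
dme-miR-980-3p: tAGCTGCCttgtgaagggctta

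The 8 seeds all differ from one another, so the products do not form a seed family. The seed of miR-980-3p was the only one of the 8 that another known product listed in these libraries carried. That product is miR-4968-5p, shown here for the shared capitals, which had 7 control and 8 ethanol reads.
dme-miR-4968-5p: tAGCTGCCacggtttgttgctt
As background, vertebrate miR-22 carries this seed too. The longest run of bases that any of the 8 products shared with another known product was 7 to 9. Each run was shorter than the product itself, so no other listed miRNA held the whole sequence of any of the 8. Copies with scattered mismatches were not searched for. None of the 99 candidate miRNAs named by the authors shared 12 bases with one of the 8 products or with its reverse complement.

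The Ensembl annotation of build BDGP6.54 places 3 of the 4 hairpins in introns of protein-coding genes, on the strand of the gene. These coordinates are the annotation's. The deposited files hold none and were made on BDGP5. The hairpin of mir-929 lies at chr3R:4295369-4295456 on the plus strand, in introns of all 21 annotated transcripts of cpx, which encodes complexin, a protein that holds synaptic vesicles back from fusion until calcium enters. That of mir-932 lies at chr2L:6902062-6902152 on the plus strand, in introns of all 3 transcripts of Nlg2, which encodes neuroligin 2, an adhesion protein of synapses. That of mir-927 lies at chrX:15965947-15966038 on the minus strand, in introns of all 8 transcripts of mmd, which encodes a metalloprotease of the ADAM family. The hairpin of mir-980 lies at chrX:280172-280269 on the minus strand, against the direction of CG3777. It overlapped no exon of that gene and lay within the span of 1 of its 5 transcripts. Each of the 4 stands alone: the nearest other annotated miRNA gene on the same chromosome was between 114885 and 523643 bases away. The host genes' own RNA was not measured in these libraries.

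The control library held 17337082 reads, of which 13692046 were assigned to known miRNAs, and the ethanol library held 17600983, of which 13128478 were assigned. Levels are counts per 1000000 of those known miRNA reads (CPM), and intervals are exact 95% intervals that cover the counting error of reads only. PCR copies are not independent molecules, so the intervals may be too narrow for the counting error of molecules. The RNA integrity number was 6.80 for the control and 6.40 for the ethanol RNA, and its part in the differences was not tested. The heads were whole, and muscle miRNAs (mir-1 and mir-133) made up 313766 CPM of control and 301679 CPM of ethanol reads, far more than the 1823 and 1711 CPM of the 8 products together. mir-124, a hairpin of neurons, summed to 8150 and 4225 CPM, and mir-7, known from the eye, to 696 and 808 CPM. Of hairpins that mark other tissues, the gut list held 134 and 140 CPM, the ovary and early embryo list, of which 5 of 7 hairpins were listed, 183 and 143 CPM, nearly all of it miR-5-5p (179 and 136 CPM), and the gonad list 7.67 and 11.4 CPM. In RNA of a whole head, fewer cells of a type and less RNA per cell cannot be told apart, and which cells made the 8 products was not measured.

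Of the 8 products, 4 were fairly abundant and 4 were rare. miR-932-5p had 8129 control reads (594 CPM, 581 to 607) and 6545 ethanol reads (499 CPM, 487 to 511), at rank 52 and 55 of all known sequences. miR-927-5p had 5778 control reads (422 CPM, 411 to 433) and 9335 ethanol reads (711 CPM, 697 to 726), at rank 57 and 51. miR-929-3p had 6075 control reads (444 CPM, 433 to 455) and 3258 ethanol reads (248 CPM, 240 to 257), at rank 56 and 63. These 3 are the more abundant arms of their hairpins. miR-932-3p, the other arm of mir-932, had 4561 control reads (333 CPM, 324 to 343) and 2954 ethanol reads (225 CPM, 217 to 233), at rank 60 and 65.

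The 4 rare products were the minor arms of mir-929 and mir-927 and both arms of mir-980. miR-929-5p had 187 control reads (13.7 CPM, 11.8 to 15.8) and 157 ethanol reads (12.0 CPM, 10.2 to 14.0). miR-980-3p, the more abundant arm of the memory suppressor, had 91 control reads (6.65 CPM, 5.35 to 8.16) and 82 ethanol reads (6.25 CPM, 4.97 to 7.75). miR-927-3p had 84 reads in each library (6.13 and 6.40 CPM), and miR-980-5p had 55 and 44 reads (4.02 CPM, 3.03 to 5.23, and 3.35 CPM, 2.44 to 4.50). In the control library the order of the 4 abundant products was miR-932-5p, miR-929-3p, miR-927-5p and miR-932-3p. The counting intervals of miR-929-3p and miR-927-5p met there (433 to 455 and 411 to 433 CPM), as did those of miR-980-3p and miR-927-3p. In the ethanol library miR-927-5p came first, then miR-932-5p, miR-929-3p and miR-932-3p, with no overlap between the intervals of neighbours among these 4. The whole of mir-980 was 146 control and 126 ethanol reads, against 12690 and 9499 for mir-932.

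**Figure D1:**
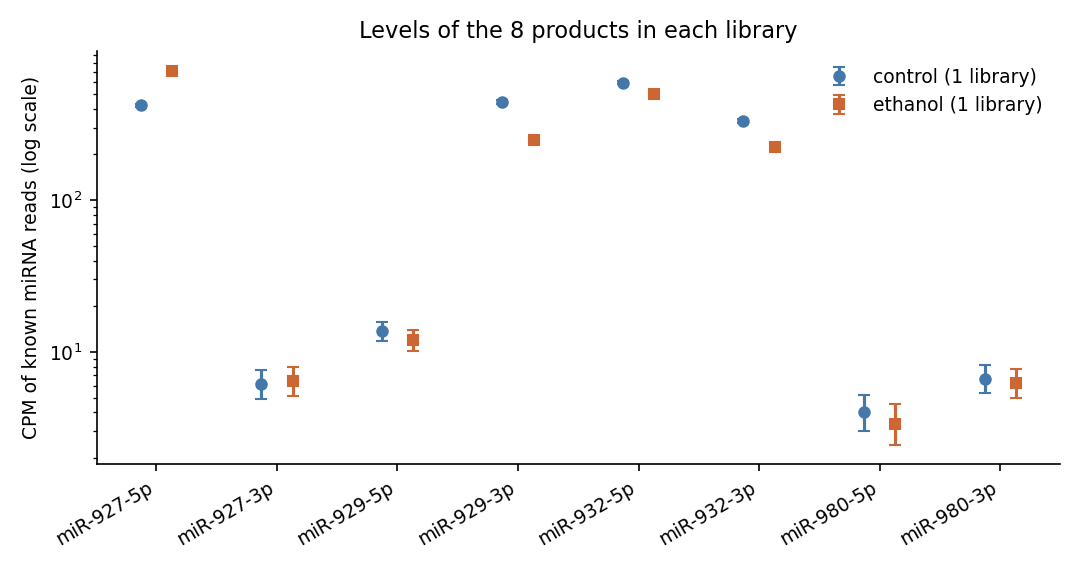
Levels of the 8 products in CPM of known miRNA reads (log scale) in the control (circles) and the ethanol library (squares), 1 library each, with exact 95% counting intervals. miR-927-5p is higher in the ethanol library (422 and 711 CPM), while miR-929-3p, miR-932-5p and miR-932-3p are lower there, and the intervals of each rare product overlap between the libraries.

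The comparison of ethanol with control asks which miRNA levels differ soon after a sedating exposure. A product was compared when it had at least 100 reads over both libraries, which 168 known products did, among them 7 of the 8. miR-980-5p, with 99 reads, was just below the minimum. A call needed a difference of 2-fold or more in either direction. None of the 7 was called, against 3.57% of all 168 (2.38% higher and 1.19% lower). The balance over all 168 depends on the scaling: 4 were higher and 2 lower in CPM, 4 and 4 in the authors' RPM, and 4 and 5 in CPM without the 4 most abundant miRNAs. As the groups hold 1 library each, no test of the treatment was possible.

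The 4 abundant products differed between the libraries by more than counting error and by less than 2-fold. miR-927-5p was 1.68-fold higher in the ethanol library (1.63 to 1.74), a log2 ratio of 0.75, and 11 of the 168 products had a higher ratio. miR-929-3p was 1.79-fold lower (1.71 to 1.87), a log2 ratio of -0.84, at rank 7 from the lowest. miR-932-3p was 1.48-fold lower (1.41 to 1.55), at rank 20 from the lowest, and miR-932-5p was 1.19-fold lower (1.15 to 1.23), at rank 50. The direction was thus opposite for the mir-927 product and for those of mir-929 and mir-932. A counting interval that excluded 1 is common at this depth: 75.0% of all 168 products had one, 36.9% with the higher level after ethanol and 38.1% with the lower, as did 1 and 3 of the 7. The spread between libraries of one treatment was not measured.

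For the rare products no difference was detectable at this depth. miR-929-5p had a ratio of 0.88 (0.70 to 1.09), miR-980-3p of 0.94 (0.69 to 1.28) and miR-927-3p of 1.04 (0.76 to 1.43). miR-980-5p, not among the compared, had a ratio of 0.83 (0.55 to 1.26). With both arms summed, mir-980 had a ratio of 0.90 (0.70 to 1.15), and this interval holds no 2-fold difference either way. Over the 7 compared products 2 ratios lay above 1 and 5 below, with a median log2 ratio of -0.19, against 82 above and 86 below and a median of -0.02 over all 168. Of the 2, miR-927-3p lay below 1 under other scalings, with a log2 ratio of -0.02 in RPM and -0.06 in CPM without the 4 most abundant miRNAs. At a lower bar of 1.5-fold, 2 of the 7 were past it, miR-927-5p higher and miR-929-3p lower, against 23.2% of the 168 (12.5% higher and 10.7% lower), and miR-932-3p lay just inside. miR-932-3p was past 1.5-fold in RPM (log2 ratio -0.65), with TMM scaling (-0.60) and in CPM without the 4 most abundant miRNAs (-0.69). It stayed inside with DESeq2 size factors (-0.55), with duplicate names summed (-0.57) and with a straight line in guanine share taken out (-0.26). The share of the 168 past 1.5-fold was not counted under these other settings. The median log2 ratio of all 168 was lower too, at -0.10 in RPM and -0.05 with TMM scaling. In CPM without the 4 most abundant miRNAs it was -0.14.

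**Figure D2:**
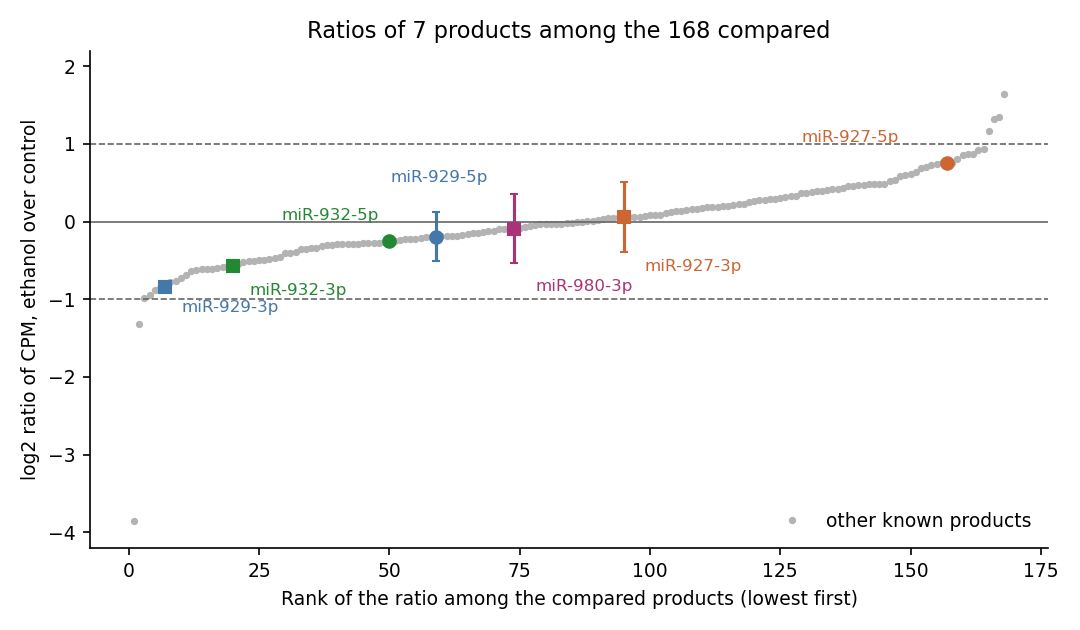
The log2 ratio of CPM, ethanol over control, of the 168 compared products in rank order (grey), with the 7 compared products of the 4 hairpins in colour (circles 5p, squares 3p) and their exact 95% counting intervals, which for the 4 abundant ones are smaller than the marks. Dashed lines mark 2-fold. All 7 lie between the lines, from -0.84 for miR-929-3p to 0.75 for miR-927-5p.

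Summed over the 4 hairpins the CPM were nearly level, while their make-up differed. The 8 products held 24960 control and 22459 ethanol reads, a ratio of 0.94 (0.92 to 0.96). mir-927 made up 23.5% of these reads without ethanol and 41.9% after it. mir-929 made up 25.1% and 15.2%, and mir-932 50.8% and 42.3%. mir-980 stayed under 1% of the sum in each library, with 0.58% and 0.56%. These shares do not depend on how the libraries are scaled, while the ratio of 0.94 does. RPM and CPM without the 4 most abundant miRNAs give every product a lower ratio than CPM.

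The ratio of one product to another within a library does not depend on how the libraries are scaled. These ratios were computed after the levels were seen, for the 6 pairs of the 4 abundant products. Their folds combine the ratios already given, and the intervals cover counting error only. The share of all pairs of known products past 2-fold was not computed. In the control library miR-927-5p and miR-929-3p were nearly level, with 0.95 reads of the first per read of the second, and after ethanol there were 2.87, a 3.01-fold difference (2.85 to 3.18). Against miR-932-5p, miR-927-5p stood at 0.71 without ethanol and 1.43 after it (2.01-fold, 1.92 to 2.10), so the order of the pair was reversed. Against miR-932-3p it stood at 1.27 and 3.16 (2.49-fold, 2.36 to 2.64). With a straight line in guanine share taken out, the folds of miR-927-5p were 2.39 against miR-929-3p and 1.62 against each arm of mir-932. The part of base composition in these folds was not tested. The other 3 pairs, all of products that were lower in the ethanol library, differed less. Among them, miR-932-5p stood at 1.34 against miR-929-3p without ethanol and at 2.01 after it.

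The hairpins differed in how reads were divided between their arms. In mir-927 the 5p arm took 98.6% of control reads (98.2 to 98.9) and 99.1% of ethanol reads (98.9 to 99.3). In mir-929 it was the 3p arm, with 97.0% (96.6 to 97.4) and 95.4% (94.6 to 96.1). mir-932 kept both arms at a substantial level, with 64.1% of control reads on 5p (63.2 to 64.9) and 68.9% of ethanol reads (68.0 to 69.8). In mir-980 the 3p arm took 62.3% (53.9 to 70.2) and 65.1% (56.1 to 73.4). The more abundant arm was the same in both libraries for each hairpin.

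The odds of a read falling on 5p instead of 3p were higher in the ethanol library for 3 hairpins. The odds were 1.62-fold higher in mir-927 (1.18 to 2.22), 1.57-fold in mir-929 (1.25 to 1.95) and 1.24-fold in mir-932 (1.17 to 1.32). For mir-932 the log2 odds of 3p over 5p was -0.31, and 0.02 once a straight line in the arms' difference in guanine was taken out. For mir-980 no shift was detectable, with odds of 3p over 5p 1.13-fold higher (0.67 to 1.91). None of the 3 hairpins with both arms compared passed 2-fold, against 18.0% of the 61 hairpins with both arms compared. By the size of the shift in odds, either way, mir-927 ranked 19, mir-929 22 and mir-932 34 of the 61. The share of the 61 that shifted towards 5p was not computed. Whether the direction is particular to these 3 hairpins is therefore not shown. The arms of a hairpin lay on opposite sides of a ratio of 1 in 49.2% of the 61. In mir-929 and mir-932 both arms lay on the same side, as they did in mir-927 in CPM but not in RPM or without the 4 most abundant miRNAs, where miR-927-3p had the ratio below 1 given above.

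**Figure D3:**
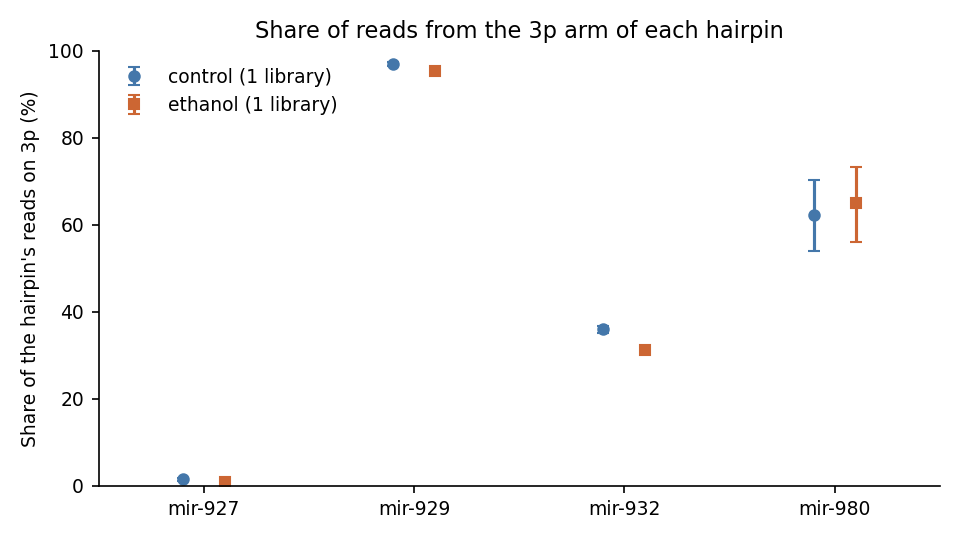
Share of the reads of each hairpin that came from its 3p arm (%), in the control (circles) and the ethanol library (squares), 1 library each, with exact 95% intervals. mir-927 is read almost wholly from 5p and mir-929 from 3p, mir-932 has 35.9% and 31.1% on 3p, and the intervals of mir-980 overlap.

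The sequences of the arms can be set beside these shares. The 8 deposited products were 21 to 24 bases long, and each had the length that the annotation gives its arm. Folded together by RNAduplex, the arms of mir-932 formed 19 base pairs, those of mir-980 formed 18, those of mir-927 formed 17 and those of mir-929 formed 14. The abundant arms of mir-927, mir-932 and mir-980 begin with T (U in the RNA), as miR-932-3p does. miR-929-3p begins with C, and its minor partner miR-929-5p begins with A.

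Over all compared products the ratio was lower where the mature sequence held more guanine, a relation known from earlier results of these data, so the guanine share of the arms is given beside their ratios. miR-927-5p, the product with the highest ratio of the 7, held 2 guanines in 22 bases (9.09%), and for the 27 compared products under 15% guanine the median log2 ratio was 0.37, and 22 of them lay above 0. miR-932-3p, with 8 in 22 (36.4%), and miR-980-3p, with 7 in 22 (31.8%), were among the 45 products of 30% or more, whose median was -0.27, with 9 above 0. miR-929-3p, with 5 in 21 (23.8%), and miR-932-5p, with 5 in 22 (22.7%), were among the 38 products from 20 to 25%, whose median was 0.00 with 19 above 0. miR-929-3p therefore lay 0.84 below the median of products with a like share of guanine. With a straight line in guanine share, fitted over all 168 products, taken out, the log2 ratio was 0.44 for miR-927-5p, which was then inside 1.5-fold, -0.82 for miR-929-3p, -0.26 for miR-932-3p and -0.26 for miR-932-5p. The part of base composition in these differences was not tested.

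**Figure D4:**
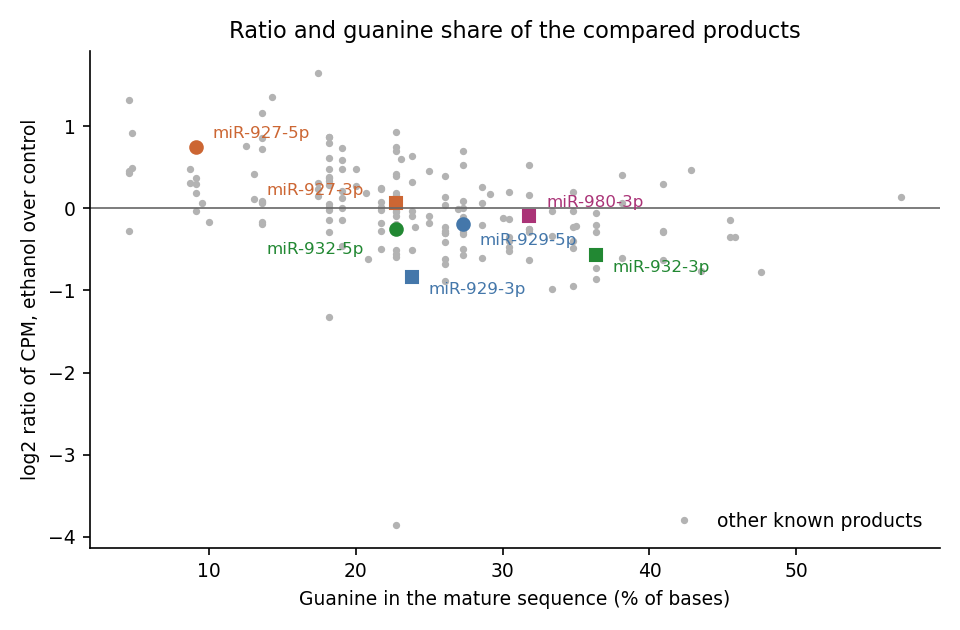
The log2 ratio of CPM, ethanol over control, against the share of guanine in the mature sequence (% of bases) for the 168 compared products (grey) and the 7 compared products of the 4 hairpins (circles 5p, squares 3p). miR-927-5p lies high at 9.09% guanine and miR-932-3p low at 36.4%, while miR-929-3p lies low at 23.8%, where the median of products from 20 to 25% is 0.00.

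The products nearest in level to each hairpin's abundant arm were found by the distance of log2 CPM over the 2 libraries. The nearest to miR-927-5p was miR-1000-5p, of a hairpin that acts at glutamate synapses, with 5720 and 9164 reads (distance 0.03), followed by miR-13b-3p (0.47) and miR-9a-5p (0.49). The nearest to miR-932-5p was miR-278-5p, with 8264 and 6451 reads (0.03), followed by miR-9a-5p (0.48) and miR-13b-3p (0.56). miR-929-3p had no such close match: miR-996-5p (0.39), miR-932-3p (0.44) and miR-317-5p (0.48) came nearest, and each of these was lower in the ethanol library by less than miR-929-3p. The nearest to miR-980-3p were miR-927-3p (0.12), miR-133-5p (0.29) and miR-2b-1-5p (0.38). Over 2 libraries such distances describe levels alone.

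Other miRNAs tied to memory or to neurons, from lists drawn up with earlier results of these data known, had ratios on both sides of 1. Of 5 other memory-linked hairpins (mir-276a, mir-9c, mir-31a, mir-305 and mir-974), 7 products were compared, none of them from mir-974. None was past 2-fold, against 3.57% of the 168, and 4 ratios lay above 1 and 3 below, with a median log2 ratio of 0.08. At 1.5-fold, 1 of the 7 was higher and 0 lower, against 12.5% and 10.7% of the 168. miR-276a-3p had both the most reads and the largest ratio of these 7, with 380340 and 666519 reads (ratio 1.83). Of 12 hairpins of the nervous system, which include mir-276a again, 23 products were compared, also none past 2-fold in CPM, with 14 above 1 and 9 below and a median of 0.16. At 1.5-fold, 5 of them were higher and 4 lower, against 12.5% and 10.7% of the 168. The most abundant was let-7-5p, with a ratio of 0.66, and the farthest from 1 was miR-124-3p, 1.93-fold lower. It passed 2-fold in RPM, and both arms of mir-124 did in CPM without the 4 most abundant miRNAs.

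None of the 8 is among the 14 products, of 196, that carry a mark in the authors' deposited table for known miRNAs. In the authors' deposited table the log2 ratio, there of reads per 1000000 of the library total (RPM), was 0.67 for miR-927-5p, -0.92 for miR-929-3p, -0.65 for miR-932-3p and -0.33 for miR-932-5p. The smallest absolute log2 ratio of a marked product in the authors' deposited table was 1.03, so miR-929-3p came close to it. The p-values in that table compare 2 libraries and not the treatments, and are not used here.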

How the data were processed

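RNA was size-selected on a gel (18 to 30 nt) and sequenced on an Illumina HiSeq instrument, per the labels' protocols, which state RNA integrity numbers of 6.80 (control) and 6.40 (ethanol). The deposited count is the number of reads the authors assigned to each mature miRNA; products under 5 reads are not listed, per the file contents. The deposited RPM is that count per 1000000 of a library total, which the authors do not define in the labels or files. The log2 ratio in the authors' deposited comparison table is that of the RPM, per the file headers and values. The p-value there is the authors' own, by a test that neither labels nor file headers state. The submitters' processing notes name BDGP5 as the build; the aligner, counter and trimming: not given in the sources used here.

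For names listed more than once the largest count was kept, and a sequence under 2 names was used once. Counts were scaled to CPM of known miRNA reads. Ratios carry exact conditional Clopper-Pearson 95% intervals, and arm odds exact conditional intervals (SciPy 1.17.1, pandas 2.3.3, Python 3.11.15). With 1 library per group no test was run; edgeR 4.0.16 (TMM) and DESeq2 1.42.0 (size factors), in R 4.3.3, gave scaling factors for alternatives. Arms were paired with RNAduplex (ViennaRNA 2.7.2). No hairpin sequence was used. The ratio and arm steps were tested on simulated data that held counting error only, with no spread between libraries. The simulated differences in ratio and in arm odds were larger than those of the 8 products. The members and lists were chosen with earlier results of these data known. All 8 products are named, and of others those that share a seed, the 3 nearest in level to each abundant arm, and per list the product with the most reads and the one farthest from 1.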

Additional observations from a re-analysis of the deposited data

How the results depend on the processing

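No paired analysis was possible because each group is 1 library. None of the 7 compared products passed 2-fold under the authors' RPM, TMM, DESeq2 size factors, CPM without the 4 most abundant products, summed duplicate names or the guanine line, nor did any without a filter on reads (8 compared) or with at least 1000 reads (4 compared). With a 1.5-fold threshold 2 did. Of all known products 6 passed 2-fold, against 12 without a filter on reads, 2 with at least 1000 reads (fewer products were compared) and 39 at 1.5-fold. Under other scalings it was 8 in RPM, 7 with TMM, 6 with DESeq2 size factors, 9 in CPM without the 4 most abundant products (4 higher, 5 lower) and 7 with duplicate names summed, and 4 with the guanine line removed (2 higher, 2 lower).

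Over the 6 alternatives the log2 ratio ranged from 0.44 to 0.77 for miR-927-5p, from -0.96 to -0.82 for miR-929-3p, from -0.69 to -0.26 for miR-932-3p and from -0.37 to -0.23 for miR-932-5p. The guanine line gave the value nearest 0 for miR-927-5p, miR-929-3p and miR-932-3p. The authors' RPM placed the median of all compared products at -0.10 and CPM without the 4 most abundant products at -0.14. Of the rare products, 2 took the other sign: miR-927-3p ranged from -0.06 to 0.08 and miR-980-3p from -0.21 to 0.11, all within their counting intervals. With the line in the arms' difference in guanine taken out, the log2 odds of 3p over 5p was 0.02 for mir-932 (-0.31 without it), -0.36 for mir-927 (-0.69) and -0.73 for mir-929 (-0.65). The folds of miR-927-5p within a library, with a guanine line chosen for them after the data were seen, were 2.39, 1.62 and 1.62. For mir-932 the cause was not tested. Depth limits the rare products, each with 99 to 344 reads over both libraries.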
